A study of Homo sapiens with 90 samples.

Results

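The cytosolic ribosomal protein genes encode the proteins that, together with ribosomal RNA, form the large and the small subunit of the ribosome that translates messenger RNA in the cytosol. They were taken as every gene with a probe set annotated to it alone and a symbol made of RPL or RPS and a number, with or without a closing A, L or X, together with RPLP0, RPLP1, RPLP2 and RPSA. Where a gene had several such probe sets, the one brightest on average across the 90 columns stood for it. This gave 72 of the 19774 genes named on the array, 46 of the large subunit and 26 of the small one. RPLP0, RPSA and RPS27A were not analysed here.

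RNA came from A673 cells, an established human line of Ewing sarcoma, a tumor of bone and soft tissue. The cells had been exposed for 24 h to fenbuconazole, a triazole fungicide, to imazalil, an imidazole fungicide, or to 2,4-D, a chlorophenoxy herbicide, each at 9 concentrations from 0.001 to 10 µM, or to the DMSO vehicle. All groups held DMSO at 0.2% and had 3 replicates, and each chemical formed a set of 30 columns with its own normalization. The labels call the 3 DMSO controls common to the chemicals, and each set holds its own normalized columns of them. Replicates were separate batches of cells by the study's account, so within a chemical a replicate number stands for 1 batch. One line of tumor cells in a plate well is the whole model, and in such bulk RNA fewer cells and less RNA per cell cannot be told apart.

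Array medians lay between 2.76 and 2.83 log2 in the fenbuconazole set, 3.34 and 3.39 in the imazalil set and 3.40 and 3.46 in the 2,4-D set, so levels were compared only within a set. Of the DMSO columns, those with the same number in the imazalil and 2,4-D sets had nearly the same profile (r = 0.87 to 0.88 after centring each probe set in its set), as columns of 1 array normalized in separate runs would. The fenbuconazole set's DMSO columns carry the same run numbers in the labels but correlated with those of the same number at r = 0.11 to 0.20 only. Run numbers followed the concentration within each chemical and replicate, so the order of runs and the concentration cannot be told apart. Of the Ewing sarcoma markers, 9 of 10 were measured, with a median level of 9.28 log2 in the fenbuconazole set. CD99, CAV1, STEAP1 and CCND1 were at 10.87 or more there, whereas GLI1 was at 3.87. The other markers are not listed here. The 8 markers of liver, epithelium, breast, blood and endothelium lay between 2.33 and 3.25.

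A ribosome holds most of its proteins in equal number, and their messenger RNAs are among the most abundant in growing cells. Most of them share a short run of pyrimidines that begins with a C at the cap, the 5′ terminal oligopyrimidine or TOP element, through which the mTOR pathway and the RNA-binding protein LARP1 hold back or release their translation. Some ribosomal proteins have further roles outside the ribosome: free RPL5 and RPL11 bind the ubiquitin ligase MDM2, RPS6 is phosphorylated by the S6 kinases downstream of mTOR, and RPL13A takes part in silencing of inflammatory transcripts. An array measures the amount of the messenger RNA and not its translation.

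The common start of these genes is shown because it is the feature they share that played no part in choosing them. In the RefSeq promoter table (GRCh38.p14), 60 of the 72 genes were listed. The start base was C and opened a run of at least 5 pyrimidines in 43 of them (71.7%), against 1361 of 27245 other genes (5%), counting a gene with several listed starts when any of them fitted. The windows run from 10 bases before the listed start to 15 bases from it on, read on the strand of the gene, and capitals mark the pyrimidine run that opens at the start base.
RPS6: gaagttggccCTCTTTTCCgtggcg
RPL13A: aaacctcctcCTTTTCCaagcggct
RPS3: cgagccacttCCTTTCCTTTCagcg
RPL31: ccttcgcgctCTTCCTTTCCaactt
RPLP2: tcggcgccttCCTTTTCCTCCCTgt
RPS27: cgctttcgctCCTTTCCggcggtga
RPL10: ggaggagcgcCTCTTTCCCTTCggt
RPS26: acataacctcgattttcttccgcca
RPS27L: gatgccgagcgcagatcgcttgcag
RPL10L: gtagttaagagagcgcattttgact
They lie at chr9:19380222-19380246 (minus strand) for RPS6, chr19:49487598-49487622 (plus strand) for RPL13A, chr11:75399508-75399532 (plus strand) for RPS3, chr2:101002279-101002303 (plus strand) for RPL31, chr11:809957-809981 (plus strand) for RPLP2, chr1:153990752-153990776 (plus strand) for RPS27, chrX:154398367-154398391 (plus strand) for RPL10, chr12:56041908-56041932 (plus strand) for RPS26, chr15:63157463-63157487 (minus strand) for RPS27L and chr14:46651767-46651791 (minus strand) for RPL10L. The first 7 open with C and a pyrimidine run, whereas RPS26 and the paralogs RPS27L and RPL10L open with G. RPL10 is shown at the listed start with the run, since its other listed starts lacked it. An annotated start that misses the cap by a base would hide the element, so a window without it says only that these letters are absent there.

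The ribosomal protein genes were among the brightest on the arrays. Their median level was 12.46 log2 in the fenbuconazole set, 12.77 in the imazalil set and 12.83 in the 2,4-D set, against 3.67, 4.62 and 4.69 over all named genes, and 65 of the 72 lay above the 99th percentile of probe sets in all 3 sets. Signals of different probe sets depend on their probes, so the levels rank brightness on the array and not transcript number. RPL41, whose product is a very short peptide of the large subunit, had the brightest mean of the 72 in the fenbuconazole set (13.23). RPS2, a protein of the small subunit near the entry of the messenger RNA, had it in the imazalil and 2,4-D sets (13.46 and 13.47).

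A few genes stood below this range. Of the paralogs, RPL3L, which replaces RPL3 in heart and skeletal muscle, averaged 2.51, 3.04 and 3.01 log2 in the fenbuconazole, imazalil and 2,4-D sets, at the 37.8, 39.8 and 34.7 percentile of all probe sets. RPL10L, a copy of RPL10 used in the male germ line, averaged 3.98, 4.91 and 5.05. RPL39L, a copy of RPL39 known from testis and some cancers, averaged 7.03, 8.16 and 8.15, and RPS27L, a copy of RPS27, 10.10, 10.80 and 10.93. Their partners RPL3, RPL10, RPL39 and RPS27 all averaged at least 12.01 in each set. Of the other genes, RPL31 averaged 9.40, 10.15 and 10.24 and RPL23 3.86, 4.75 and 4.95. For RPL23 the rule left a dim probe set, because the bright one, with 11.30, 11.83 and 11.90, is annotated to RPL23 and the small nucleolar RNA SNORA21 together. RPL31 likewise has a bright probe set shared with a pseudogene, with 12.45, 12.75 and 12.78. Both bright probe sets fall outside the rule. RPL26 was the remaining gene under 11 in any set, at 10.91, 11.61 and 11.69.

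Replicates of the ribosomal protein genes lay close together. The SD within groups of 3 replicates had a median of 0.07 log2 over the 72 genes in the fenbuconazole set, 0.063 in the imazalil set and 0.05 in the 2,4-D set, against 0.15, 0.14 and 0.13 over all named genes. Spread falls with brightness on these arrays, so genes of like brightness are the closer comparison. Among genes at 12 log2 or more, the median SD was 0.065 for 54 ribosomal protein genes and 0.072 for 60 other genes in the fenbuconazole set, 0.06 for 62 and 0.06 for 115 in the imazalil set, and 0.048 for 62 and 0.054 for 134 in the 2,4-D set. At like brightness the medians of the ribosomal protein genes and of the other genes were much closer than over all genes.

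**Figure D1:**
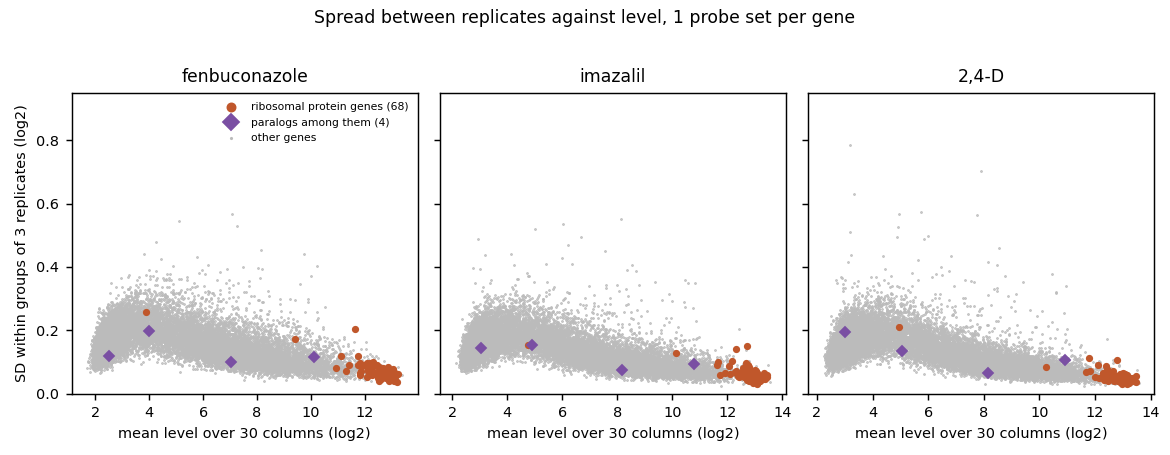
SD within groups of 3 replicates (y, log2) against the mean level over the 30 columns of a set (x, log2) for each named gene, with 1 panel per chemical; orange points are 68 ribosomal protein genes, purple diamonds the 4 paralogs and grey points the other genes. Most orange points sit at the bright end with a low SD, and the dim orange point at 3.86 log2 in the fenbuconazole panel is RPL23.

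The steadiest of the 72 were RPL10A, RPS4X, RPS16 and RPL17, with an SD averaged over the 3 sets of 0.034, 0.038, 0.04 and 0.041 log2. RPS4X is the X-linked form of a small-subunit protein. The widest were RPL23 (0.21), RPL10L (0.16), RPL3L (0.15) and RPS25 (0.14). The first 3 of these are dim, whereas RPS25, a small-subunit protein needed for some internal starts of translation, is bright and ran over 11.20 to 12.05 in the fenbuconazole set and 12.13 to 12.60 in the 2,4-D set. Of the variance of a gene over the 30 columns, the 9 concentrations and DMSO took a median share of 25.7%, 22.8% and 27.6% in the fenbuconazole, imazalil and 2,4-D sets, and the replicate number 9.2%, 12.3% and 10.1%. Over all named genes the shares were 29.4%, 26.9% and 27.1% for concentration and 7%, 9.21% and 9.79% for the replicate number. Neither share is corrected for the number of groups, and more groups take a larger share of mere noise. The share of concentration can therefore not be set against that of the replicate number, nor read as an effect. After taking out group means, pairs of these genes at 12 log2 or more correlated over the 30 columns with a median r of 0.064, 0.15 and 0.12, against 0.029, 0.021 and 0.012 for pairs of other genes as bright. All pairs share the same columns, and many probe sets of ribosomal protein genes share sequence with pseudogenes.

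At 10 µM, the highest concentration, none of the 72 genes passed the test against DMSO for any of the 3 chemicals (limma, Benjamini-Hochberg adjusted p under 0.05 over all 54613 probe sets). Among all probe sets, 0% passed in each set. The smallest adjusted p of the 72 genes was 0.786 for fenbuconazole, 0.994 for imazalil and 0.999822 for 2,4-D. At an unadjusted p under 0.05 there were 0, 2 and 1 of the 72, beside 7%, 4.75% and 3.85% of all probe sets. The median difference from DMSO was 0.0027 log2 for fenbuconazole (38 genes above 0 and 34 below), -0.0055 for imazalil (30 and 42) and -0.023 for 2,4-D (25 and 47), beside -0.005, 0.00033 and -0.0072 over all named genes. The large subunit had a median of -0.0077, -0.0068 and -0.025, and the small subunit 0.018, -0.0026 and -0.018.

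**Figure D2:**
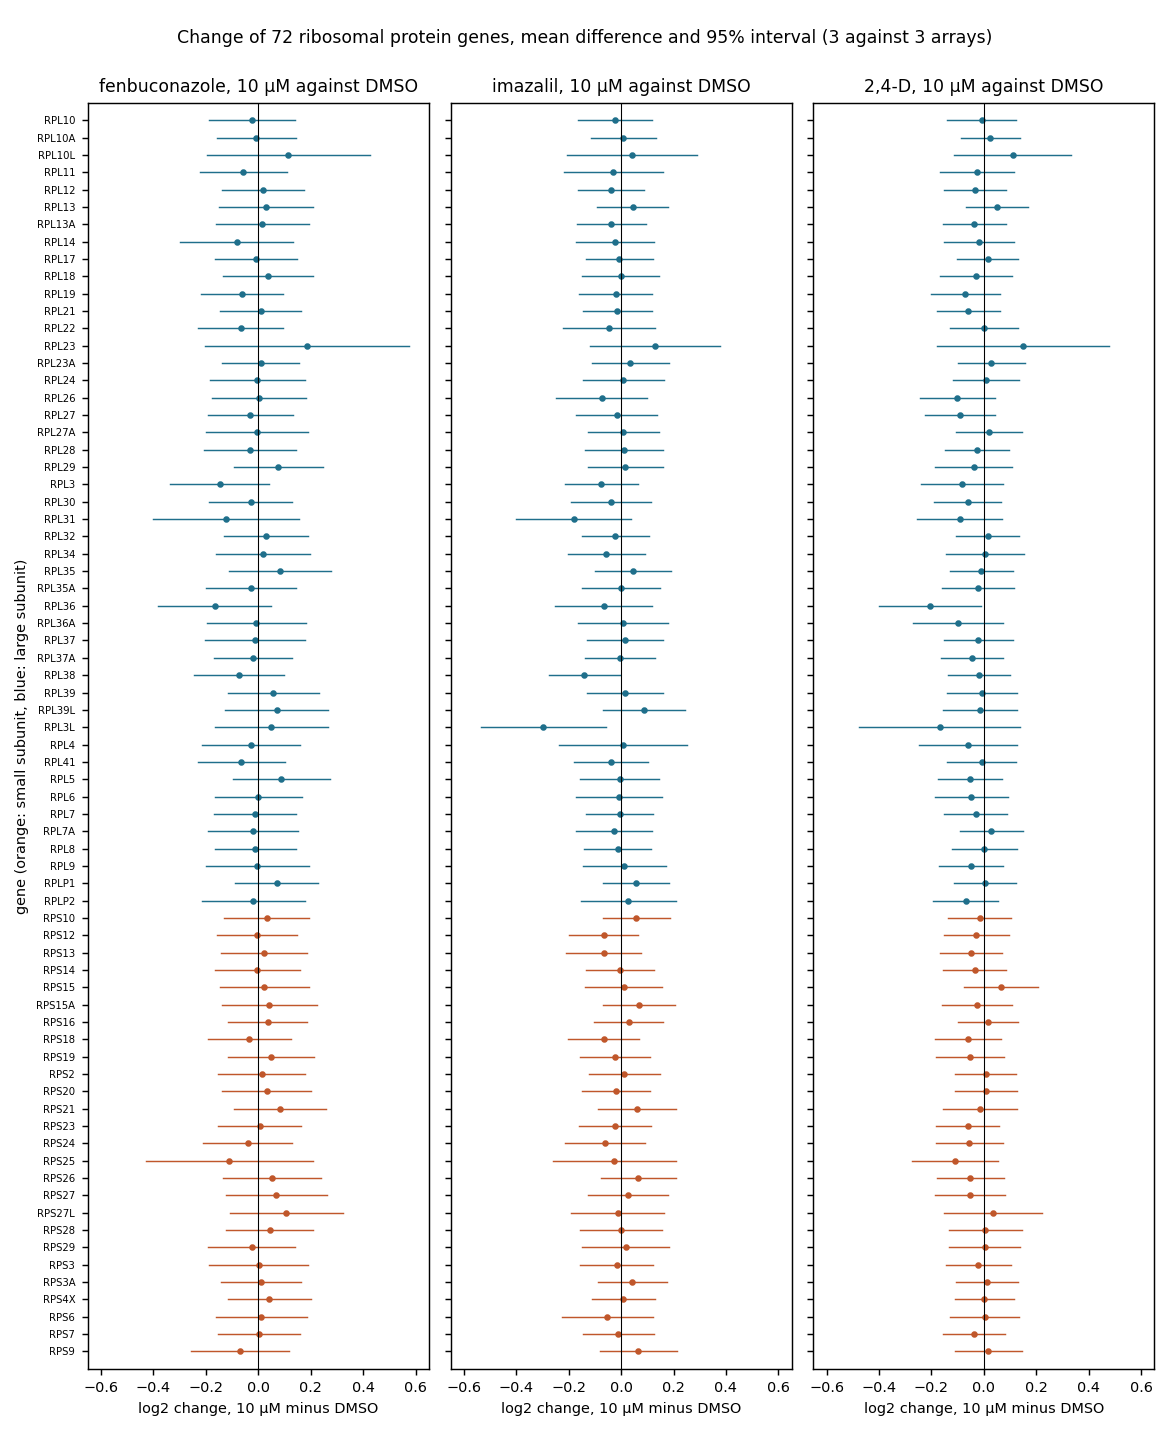
Difference of each of the 72 genes between 10 µM and DMSO (x, log2; points are means of 3 replicates minus means of 3 and lines 95% intervals from the limma fit), with 1 panel per chemical, blue for the large and orange for the small subunit. Nearly all intervals cross 0; the exceptions are RPL3L and RPL38 for imazalil and RPL36 for 2,4-D, whose adjusted p was 0.994 or more.

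The intervals bound what these arrays could have missed in a single gene, not in the genes as a group. The 95% interval of the difference lay within 0.25 log2 on both sides of 0 for 57 of the 72 genes with fenbuconazole, 64 with imazalil and 65 with 2,4-D, and the median distance from its centre to either end was 0.17, 0.15 and 0.13. A call needed an adjusted p under 0.05 over all probe sets, so with 3 replicates changes inside this distance were not detectable. Some outside it were not either: RPL3L differed by -0.30 with imazalil, at a limma adjusted p of 0.994. The 3 and 3 values did not overlap in 2 genes of the 72 for each chemical (RPL19 and RPL36 with fenbuconazole, RPL38 and RPL3L with imazalil, RPL13 and RPS27 with 2,4-D, named after their values were seen), beside 11.2%, 7.97% and 7.01% of all probe sets. The intervals rest on moderated SDs, for which limma draws each gene toward the array-wide SD of 0.15, 0.14 and 0.13, so that the median SD used for the 72 genes was 0.10, 0.087 and 0.076. Since each set was normalized to equal distributions, a change shared by all messenger RNAs would not show. At 12 log2 or more, 54 ribosomal protein genes stood beside 60 other genes in the fenbuconazole set. The numbers were 62 beside 115 in the imazalil set and 62 beside 134 in the 2,4-D set. A change shared by the ribosomal protein genes alone could therefore be partly removed too, which was not tested.

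With fenbuconazole, the lowest differences were those of RPL36, RPL3, RPL31 and RPS25. RPL36, a small protein of the large subunit, was at 10.90, 11.04 and 11.05 at 10 µM, listed from the lowest, and at 11.05, 11.17 and 11.26 in DMSO, a difference of -0.17 (95% interval -0.38 to 0.05). The 10 µM values all lay below those in DMSO. RPL3, a core protein beside the peptidyl transferase center, was at 11.81, 11.92 and 12.08 at 10 µM and 11.97, 12.12 and 12.17 in DMSO, a difference of -0.15 (95% interval -0.34 to 0.041), with overlapping groups. RPL31 and RPS25 differed by -0.12 and -0.11, and the highest differences were those of RPL23 (0.19), RPL10L (0.12), RPS27L (0.11) and RPL5 (0.088). RPL5 was at 12.25, 12.30 and 12.42 at 10 µM and 12.14, 12.25 and 12.31 in DMSO, within the spread of the groups. No adjusted p among these 8 genes was below 0.786.

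With imazalil, the lowest differences belonged to RPL3L, RPL31, RPL38 and RPL3. RPL3L was at 2.76, 2.89 and 3.05 at 10 µM and 3.17, 3.19 and 3.22 in DMSO, a difference of -0.30 (95% interval -0.53 to -0.058) at an adjusted p of 0.994. The groups did not overlap, but the probe set is close to the floor of the array, and at the 8 lower concentrations its mean ran over 2.97 to 3.08. RPL38, a small large-subunit protein that in mice governs translation of Hox transcripts, was at 12.21, 12.31 and 12.36 at 10 µM and 12.37, 12.39 and 12.54 in DMSO, a difference of -0.14 (95% interval -0.28 to -0.0039) at an adjusted p of 0.999773. Against the other 8 concentrations RPL38 differed by -0.12 (adjusted p = 0.841). RPL31 and RPL3 differed from DMSO by -0.18 and -0.076. The highest differences were 0.13 for RPL23, 0.088 for RPL39L, 0.068 for RPS15A and 0.066 for RPS26, all with overlapping groups.

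With 2,4-D, RPL36, RPL3L, RPS25 and RPL26 had the lowest differences. RPL36 was at 11.54, 11.60 and 11.68 at 10 µM and 11.67, 11.85 and 11.91 in DMSO, a difference of -0.20 (95% interval -0.40 to -0.0093) at an adjusted p of 0.999822. The highest 10 µM value lay just above the lowest DMSO value. RPS25 was at 12.13, 12.17 and 12.30 at 10 µM and 12.19, 12.30 and 12.44 in DMSO, a difference of -0.11 (95% interval -0.28 to 0.053). RPL26, a large-subunit protein, differed by -0.10, and RPL3L by -0.17. The highest differences were 0.15 for RPL23, 0.11 for RPL10L, 0.065 for RPS15 and 0.051 for RPL13. The RPL13 groups did not overlap, at 13.04, 13.06 and 13.11 at 10 µM and 13.00, 13.02 and 13.03 in DMSO, although they differed by only 0.051 (95% interval -0.068 to 0.17).

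Genes with known roles beyond the ribosome or as stalk and reference proteins showed differences of the same small size. RPLP1 and RPLP2, the acidic proteins of the stalk that recruits translation factors, differed from DMSO by 0.07 and -0.019 with fenbuconazole, 0.058 and 0.027 with imazalil, and 0.0039 and -0.07 with 2,4-D. RPS6 was at 12.42, 12.56 and 12.60 at 10 µM fenbuconazole and 12.43, 12.53 and 12.59 in DMSO, and the values of the groups were interleaved. RPL11 differed by -0.057, -0.03 and -0.027 with fenbuconazole, imazalil and 2,4-D, and RPL13A by 0.015, -0.038 and -0.037. Over these and RPL5, RPS4X, RPL10, RPL22 and RPL41, no difference was below -0.07 (RPLP2 with 2,4-D) or above 0.088 (RPL5 with fenbuconazole).

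The 8 lower concentrations gave no gene either. None of the 72 passed the test in any of the 24 contrasts against DMSO, with a smallest adjusted p of 0.464 in the fenbuconazole set, 0.982 in the imazalil set and 0.898 in the 2,4-D set. Of all probe sets 0.00183% passed with fenbuconazole at 0.003 µM and 0% at each of the other concentrations of the 3 chemicals. At no concentration did more than 2 of the 72 reach an unadjusted p under 0.05, beside 3.38% to 8.96% of all probe sets at the lower concentrations. Over all 27 contrasts, only RPL23 and RPL3L, both on dim probe sets, ever differed from DMSO by more than 0.25 log2. RPL23 exceeded it at 7 concentrations of fenbuconazole, most at 0.1 µM with 3.91, 3.94 and 4.35 against 3.16, 3.75 and 3.77 in DMSO (0.50, adjusted p = 0.534). On their chosen probe sets the other 70 genes stayed within 0.25 log2 of DMSO in every contrast.

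As a group the genes moved a little up and down from concentration to concentration. The median difference of the 72 from DMSO ran between -0.028 at 0.01 µM and 0.042 at 0.3 µM of fenbuconazole, -0.0055 at 10 µM and 0.027 at 0.3 µM of imazalil, and -0.023 at 10 µM and 0.022 at 1 µM of 2,4-D. At 0.3 µM of fenbuconazole 57 of the 72 were above DMSO, and at 0.01 µM 20 were. The DMSO columns of replicate 2 were low for these genes: the median deviation of the 72 from their own means in a set was -0.077 there in the fenbuconazole set, against 0.014 and 0.028 in replicates 1 and 3, and -0.042 against 0.021 and 0.0049 in the imazalil set. In the 2,4-D set it was -0.038 in replicate 2 against 0.029 and -0.0022. Every difference from DMSO rests on these 3 columns.

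**Figure D3:**
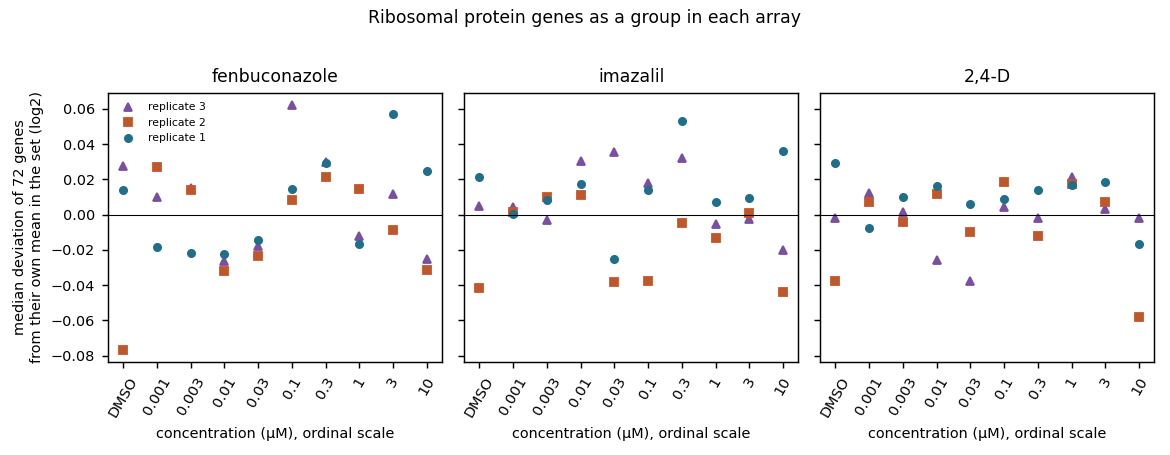
Median over the 72 genes of their deviation from their own mean in the set (y, log2) for each column by concentration (x, µM on an ordinal scale, DMSO at the left), 1 panel per chemical, symbols by replicate number. All values lie between -0.077 and 0.062, and the DMSO column of replicate 2 in the fenbuconazole panel is the lowest point.

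Against the other 8 concentrations of the same chemical instead of DMSO, 10 µM again gave none of the 72 genes, beside 0.00366%, 0.011% and 0.00183% of all probe sets with fenbuconazole, imazalil and 2,4-D. The median difference was -0.0031 with fenbuconazole, -0.016 with imazalil and -0.036 with 2,4-D, beside -0.0037, -0.0018 and -0.0018 over all named genes. With 2,4-D 56 of the 72 were lower at 10 µM (77.8%, beside 50.9% of all named genes), and 5 had an unadjusted p under 0.05 (6.94%, beside 6.27% of all probe sets, so about the share on the whole array). These were RPS25 at -0.22 (adjusted p = 0.456), RPL36 at -0.20, RPL26 at -0.12, RPL9 at -0.11 and RPLP2 at -0.094. RPL9 was at 12.63, 12.65 and 12.70 at 10 µM, against a mean of 12.77 ± 0.039 (SD, n = 24) at the lower concentrations, and was the 1 gene of the 72 whose values at 10 µM overlapped none at the others (1.39%, beside 0.11% of all probe sets); with fenbuconazole and imazalil there was none. The shift was uneven over the replicates: the median deviation of the 72 at 10 µM of 2,4-D was -0.058 in replicate 2, -0.017 in replicate 1 and -0.0019 in replicate 3. With replicate 2 left out, 44 of the 72 were lower at a median of -0.014, without replicate 1 54 at -0.033, and without replicate 3 55 at -0.048.

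No gene of the 72 passed a test along the concentrations. In the test over all 9 contrasts of a chemical together none of the 72 passed, and of all probe sets 0% did in each set. For the slope on the log10 of the concentration over the 27 treated columns none of the 72 passed either, beside 0% of all probe sets with fenbuconazole, 0.00183% with imazalil and 0% with 2,4-D. The slopes of the 72 genes ran from -0.016 to 0.027 log2 per 10-fold concentration with fenbuconazole, -0.033 to 0.051 with imazalil and -0.026 to 0.05 with 2,4-D. By unadjusted p the first genes were RPL10L with 2,4-D, with a slope of 0.05 and a limma adjusted p of 0.999956, and RPL23 with imazalil, with 0.051 and 0.986, both on dim probe sets. RPL9, a large-subunit protein, had a slope of -0.021 with 2,4-D. Further slopes with 2,4-D were 0.018 for RPL7A, 0.016 for RPS6, -0.019 for RPL39L and -0.026 for RPS25. With fenbuconazole they were 0.021 for RPL26, 0.02 for RPL39L, 0.012 for RPL22, -0.016 for RPL3, -0.012 for RPS23 and -0.011 for RPL24. With imazalil they were 0.019 for RPL39L, 0.012 for RPS15A, -0.033 for RPL10L, -0.017 for RPL18 and -0.015 for RPL41.

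The 3 chemicals were set against each other at 10 µM and 24 h in 3 pairs, as the difference between their changes from their own DMSO columns. Fenbuconazole and imazalil both carry an azole ring, a triazole in fenbuconazole and an imidazole in imazalil, and 2,4-D is a chlorophenoxyacetic acid without one. None of the 72 genes passed in any pair, beside 0.00183% of all probe sets for fenbuconazole minus imazalil and 0% for each pair with 2,4-D (p-values adjusted over all probe sets within a pair). The median of the 72 differences was 0.0067 log2 for fenbuconazole minus imazalil, 0.025 for fenbuconazole minus 2,4-D and 0.014 for imazalil minus 2,4-D. The genes first by p were RPL3L for fenbuconazole minus imazalil (0.35, 95% interval -0.0086 to 0.70), RPL5 for fenbuconazole minus 2,4-D (0.14, -0.044 to 0.33) and RPL38 for imazalil minus 2,4-D (-0.12, -0.28 to 0.041). Next by p came RPS9 (-0.13) and RPS13 (0.089) for fenbuconazole minus imazalil, RPS19 (0.10) and RPL29 (0.12) for fenbuconazole minus 2,4-D, and RPS26 (0.12) and RPS15A (0.096) for imazalil minus 2,4-D. The 95% interval lay within 0.5 log2 of 0 for 70, 70 and 72 of the 72 genes in the 3 pairs. By the labels all 3 chemicals share the 3 DMSO controls, which the fit counts as 9 separate columns, so the intervals of the 3 pairs do not hold at their stated level.

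The genes were also compared between replicate numbers. Over the 27 treated columns of a set, with concentration as a factor, none of the 72 passed the test between replicate numbers, beside 0.797% of all probe sets in the fenbuconazole set, 1.85% in the imazalil set and 2.88% in the 2,4-D set. The number at an unadjusted p under 0.05 was 1, 3 and 2 of the 72, beside 12.1%, 16.4% and 18% of all probe sets. A fit of all 81 treated columns together, added after the single sets had been seen, passed 5 of the 72 (6.94%), beside 12.4% of all probe sets and 10.1% of 89 other genes at 12 log2 or more, where 2 of 61 ribosomal protein genes passed. The difference between these shares was not tested. The 5 were RPS26, RPL39L, RPS3, RPS27L and RPL31. The count was 0 without replicate 2 and 0 without the imazalil set, 1 without the 2,4-D set (RPS26), and 2 without replicate 3 (RPS26 and RPS27L). It stayed at 5 without replicate 1, with RPL10L and RPL14 in place of RPS3 and RPS27L, and without the fenbuconazole set, with RPL22 and RPS6 in place of RPS3 and RPL31. The sources do not say whether a number marks the same batch of cells for all 3 chemicals, which the joint fit takes for granted. Within a chemical the tests compare its 3 batches only, and by the labels each number is also 1 block of runs. Differences between batches of cells and between blocks of runs cannot be told apart.

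RPS26, a small-subunit protein at the exit of the messenger RNA, was low in replicate 2. Over the 9 concentrations its median (lowest to highest) was 11.85 (11.73 to 11.91) in replicate 2 of the fenbuconazole set, 11.93 (11.85 to 12.04) in replicate 1 and 11.96 (11.84 to 11.97) in replicate 3. In the imazalil set it was 12.04 (11.99 to 12.09) in replicate 2, 12.11 (12.03 to 12.19) in replicate 1 and 12.12 (12.08 to 12.19) in replicate 3. In the 2,4-D set it was 12.10 (12.05 to 12.16) in replicate 2, 12.17 (12.14 to 12.22) in replicate 1 and 12.14 (12.07 to 12.21) in replicate 3. Replicate 2 had the lowest median in all 3 sets, with overlapping ranges, and its difference from replicate 1 was -0.093, -0.073 and -0.065 log2 in the fenbuconazole, imazalil and 2,4-D sets. Jointly the difference was -0.077 ± 0.017 (SE; adjusted p of the limma test over the 3 numbers 0.0012).

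The other 4 differed by 0.11 log2 or less jointly. RPS3, a small-subunit protein that also works in DNA repair, was higher in replicate 3 than in replicate 1, by 0.09, 0.065 and 0.038 log2 in the fenbuconazole, imazalil and 2,4-D sets (jointly 0.064 ± 0.019, adjusted p over the 3 numbers 0.017). RPL39L was higher in replicate 3 than in replicate 2, by 0.093, 0.098 and 0.062 (jointly 0.084 ± 0.022, adjusted p 0.011). RPS27L differed between replicates 2 and 1 by -0.088, -0.064 and -0.095 (jointly -0.082 ± 0.023, adjusted p 0.028), and RPL31 between replicates 3 and 2 by -0.18, -0.05 and -0.11 (jointly -0.11 ± 0.034, adjusted p 0.04). The bright RPL31 probe set shared with a pseudogene gave 0.0072 for replicate 3 minus 2 (adjusted p over the 3 numbers 0.38), and the next brightest RPS27L probe set 0.044 for replicate 2 minus 1 (adjusted p 0.9). RPS26, RPS3 and RPL39L have no further probe set among those with 1 gene.

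**Figure D4:**
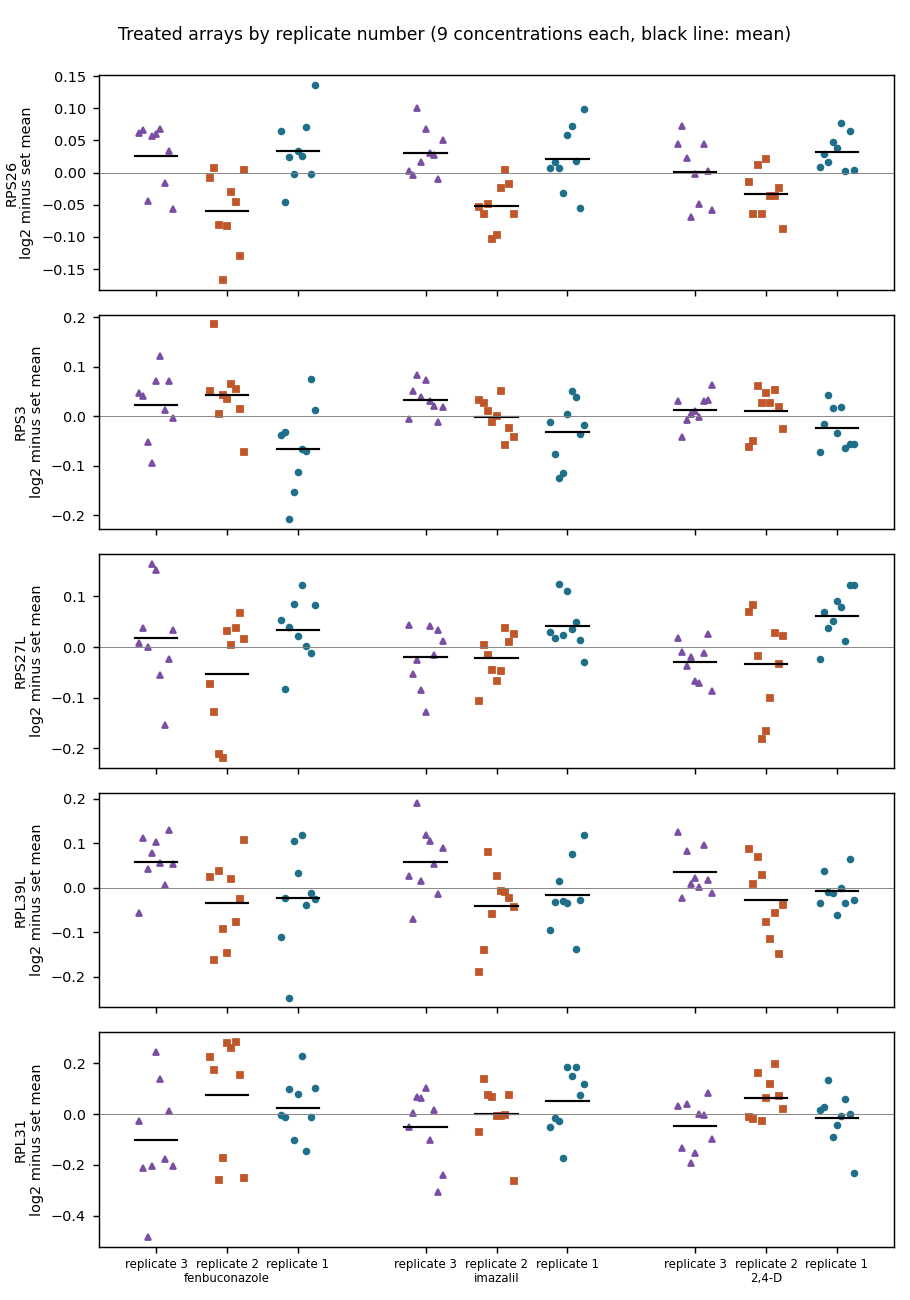
Level minus the mean of the treated columns of the set (y, log2) for RPS26, RPS3, RPS27L, RPL39L and RPL31 in the treated columns by chemical and replicate number (x); points are 9 concentrations and black lines their means. The RPS26 line of replicate 2 is the lowest in all 3 sets, and the points of the replicates overlap in every panel.

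Among the remaining genes, those with the largest differences averaged over the sets were RPL10L, RPL18 and RPL8 upward and RPL22 and RPL23 downward for replicate 2 minus 1, RPL35 and RPL28 upward and RPL4 and RPS6 downward for replicate 3 minus 1, and RPL23 and RPL14 upward and RPL10L, RPL3 and RPL36 downward for replicate 3 minus 2. Their joint differences were 0.091 for RPL10L, 0.044 for RPL18 and -0.063 for RPL22 between replicates 2 and 1. Between replicates 3 and 1 they were 0.046 for RPL35, -0.081 for RPL4 and -0.06 for RPS6. None of these genes passed the joint test over the 3 numbers on its chosen probe set. RPL22, whose loss is known from some tumors, had 5 probe sets that disagreed. The chosen one gave -0.063 for replicate 2 minus 1, and the next by brightness -0.049, -0.019, 0.057 and 0.11. Those at 0.057 and 0.11 passed the joint limma test over the 3 numbers (adjusted p 0.021 and 0.0011). A dimmer RPL3 probe set also passed it, with -0.068 for replicate 3 minus 2 (adjusted p 0.033), where the chosen one gave -0.055. On their chosen probe sets all 72 genes differed by less than 0.1 log2 jointly between replicates 2 and 1 and between 3 and 1, and 70 of them between 3 and 2. Some further probe sets that passed the joint test differed by more for replicate 2 minus 1. Those of RPL38 gave 0.23 and 0.21, where the chosen one gave -0.027. Further probe sets of RPL27A, RPS28 and RPL35A gave 0.19, 0.16 and -0.12. The sign was the same in all 3 sets for 22 of the 72 genes for replicate 2 minus 1 (30.6%, beside 35.4% of all probe sets), 24 for 3 minus 1 (33.3%, beside 32.3%) and 31 for 3 minus 2 (43.1%, beside 39.4%).

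As a reading of RNA quality, the difference between the 3′ and 5′ control probe sets of ACTB was 0.35 ± 0.10 log2 in replicate 2, 0.44 ± 0.21 in replicate 1 and 0.33 ± 0.081 in replicate 3 of the fenbuconazole set (SD, n = 10), and lay between 0.45 and 0.53 on average in the other sets. Its part in the differences between replicate numbers was not tested.

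Genes of the surrounding pathway were read from lists. Of the 75 mitochondrial ribosomal protein genes, which serve the separate ribosome of that organelle, none passed at 10 µM against DMSO, with medians of -0.0084, -0.0022 and -0.0095 log2 for fenbuconazole, imazalil and 2,4-D. None passed among 23 of 26 translation factors and other transcripts with a TOP start (-0.02, 0.0073 and -0.0089), 39 of 41 genes of ribosomal RNA synthesis and ribosome assembly (-0.031, -0.024 and -0.012), 16 regulators such as mTOR pathway genes (-0.055, 0.0048 and -0.044) and 7 ribosomal protein paralogs with other name forms (-0.036, -0.019 and -0.073). Between replicate numbers, in the fit of all 81 treated columns, 13 of the 75 mitochondrial genes passed, 1 of the 23 translation factors and TOP transcripts, 17 of the 39 genes of ribosome synthesis, 2 of the 16 regulators and 4 of the 7 paralogs. Over all 4202 named genes at 8 log2 or more the share was 28.9%.

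Some of those differences, as in UBTF, UTP4, NIP7 and MRPL32, were larger than any on the chosen probe sets of the 72 genes. A further RPL38 probe set gave 0.23 log2 for replicate 2 minus 1 (limma adjusted p over the 3 numbers 0.014). UBTF, which opens ribosomal RNA genes for RNA polymerase I, gave -0.26 log2 for replicate 2 minus 1 (adjusted p over the 3 numbers 2.66e-11). UTP4 and NIP7, which process ribosomal RNA, gave 0.17 and 0.16 for replicate 3 minus 2. MRPL32, a mitochondrial large-subunit protein, gave 0.25 for replicate 3 minus 1 (adjusted p 1.09e-12). RPL26L1 and RPL22L1, the copies of RPL26 and RPL22, gave -0.11 and -0.087 for replicate 2 minus 1, and EIF4EBP1, the mTOR-controlled repressor of cap-dependent translation, -0.1 for replicate 3 minus 2.

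Most of the 72 genes had more than 1 probe set. The 105 further probe sets of the 72 genes, 57 of them at 8 log2 or more, held none that passed against DMSO at any of the 9 concentrations of any chemical. Between replicate numbers 10 of these 105 passed in the joint fit, beside 12.4% of all probe sets. Of the 72 chosen probe sets, 26 end in x_at and 32 in s_at, names that mark probes shared with other sequences or transcripts, so that processed pseudogenes, of which ribosomal protein genes have many, can contribute to their signal.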

How the data were processed

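Total RNA of A673 cells was measured on Affymetrix HT HG-U133+ PM arrays. The authors deposited log2 values per probe set, made by robust multi-array averaging (RMA) in Partek separately for the 30 columns of each chemical; their versions are not given in the sources used here. Equalizing distributions within a set hides any change shared by all transcripts and can reduce one shared by many of the brightest. Levels of different sets are not on a common scale. The 90 columns hold values from 1.44 to 13.7 and no depth, so the number of arrays limits the precision. Control probe sets (102) were left out of the tests, and 54613 probe sets remained, 40914 with 1 gene symbol, 864 with several and 12835 with none in the platform annotation.

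Each set was fitted on its log2 values with limma 3.58.1 (R 4.3.3; lmFit, contrasts.fit and eBayes) with a mean per group and no block, and p-values were adjusted by Benjamini-Hochberg over all probe sets, with calls at 0.05. Fits were the 9 contrasts against DMSO, an F test over them, the slope on log10 concentration over the 27 treated columns, the replicate number over those columns with concentration as a factor, and differences between chemicals over all 90 columns. Scripts were tested on simulated data. Alternatives were a replicate block, fewer probe sets, trended and robust moderation, array weights, renormalization, other references and leaving out each replicate.

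The ribosomal protein genes, the gene lists and the markers were chosen with earlier results of these data known. Named genes were fixed representatives, those with the largest difference or smallest p per comparison and direction, and those with extreme SD. Start sites are from RefSeq (GRCh38.p14).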

Additional observations from a re-analysis of the deposited data

How the results depend on the processing

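The count of ribosomal protein genes that passed was 0 for 10 µM against DMSO, in any of the 9 contrasts, for the slope and between chemicals under every alternative tried, the replicate block (0 genes) included. Between replicate numbers within a set, trended and robust moderation draws bright genes toward the SD of bright genes. It passed 1 gene of the 72 in the fenbuconazole set (RPL18), beside 854 of all 54613 probe sets. In the imazalil set it passed 4 (RPL22, RPL36A, RPS26 and RPS6), beside 1929, and in the 2,4-D set 2 (RPL19 and RPL31), beside 2970. Every other alternative gave 0 of the 72. The fit of all 81 treated columns was chosen after seeing the data. Its count of 5 became 9 of 71 with dim probe sets left out, beside 7560 of all 27306 tested. With trended and robust moderation it became 11 of 72, beside 7173 of all 54613. It was 0 without the imazalil set, 1 without the 2,4-D set and 0 to 5 when 1 replicate was left out (0 without replicate 2, 2 without replicate 3). RPS26 passed in each of these except without the imazalil set (adjusted p = 0.076) and without replicate 2. RPS3 did not pass when any replicate or any set was left out. RPS27L did not pass with equal array medians, without replicate 1 or 2, or without the imazalil or 2,4-D set. RPL31 did not pass without replicate 2 or 3 or without any set, and RPL39L did not without replicate 2 or 3 or without the imazalil or 2,4-D set. The replicate number is not stated to pair samples. Deviations from group means of same-numbered columns correlated at r = 0.042, 0.069 and 0.078 on average in the fenbuconazole, imazalil and 2,4-D sets. For other numbers r was -0.021, -0.034 and -0.039. Centring on the mean of each group of 3 ties these values to those of the same number, so they are no second reading. By the study's account replicates were separate batches of cells. By the labels each replicate number is also 1 block of runs over all 3 chemicals. Batches of cells and blocks of runs cannot be told apart here. The median difference at 10 µM ran over -0.014 to 0.032 log2 with fenbuconazole, -0.023 to 0.0098 with imazalil and -0.036 to 0.0014 with 2,4-D over all alternatives, so its sign was not settled for any chemical. Over all probe sets, the count at 10 µM against DMSO was 0, and 0 to 6 with fenbuconazole, 0 to 4 with imazalil and 0 with 2,4-D over the alternatives (4, 2 and 0 with the replicate block, which changed no call of the ribosomal protein genes). Between replicate numbers it was 435, 1008 and 1575 within the sets, over the alternatives 0 to 854, 2 to 1929 and 5 to 3016, and 6745 jointly, with 558 to 7757. The lowest of each came without replicate 2. The cause of these changes was not tested.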
